A study of Mus musculus with 3 samples.

Results

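The genes described here encode the scaffolds, spine proteins and signalling proteins of the postsynaptic density, the protein layer under the membrane of excitatory synapses. They were chosen by name, from a list of 49 names, and 48 of these had a row among the 46073 genes of the RNA table. The remaining name, Citron, had no row of its own, and Cit, the gene of the citron kinase, stands in the list under its own symbol. RNA came from the medial prefrontal cortex, a frontal cortical region, of naïve C57BL/6 mice aged 3 months. The series has 3 samples, namely DNA captured by an antibody to methylated cytosine, input DNA and RNA, with no second condition, and the DNA samples were not analysed here. The design text gives 3 replicates for RNA-seq, but the table holds 1 distinct value per gene, since its 2 value columns are equal in 46073 of 46073 rows. Values below therefore carry no error, differences between genes could not be set against a spread between replicates, and no p-value is given. They are FPKM, mapped fragments scaled to transcript length and to the size of the library, and so can be set side by side between genes. The depth of the library is unknown, and counting intervals are left out for that reason.

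In the postsynaptic density, membrane-associated guanylate kinases (MAGUKs) hold glutamate receptors under the membrane. SAPAP proteins, encoded by the Dlgap genes, link the MAGUKs to Shank proteins, and Shank proteins bind Homer proteins, which reach receptors and calcium stores deeper in the spine. Calcium entering through NMDA receptors acts on calmodulin, kinases and the phosphatase calcineurin beside these scaffolds, while regulators of small GTPases shape the actin of the spine.

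The start sites of these genes are shown first, because the series set out to map methylated DNA and CpG dinucleotides are a main site of that mark. RefSeq promoter windows for GRCm38.p6 (the assembly of mm10), each from 250 bases before to 50 bases after a start site, were matched by symbol for 40 of the 48 genes, 69 windows in all. Ppp3ca, Nsg1, Ppp1r1b, Synpo, Shank1, Abi2, Shank2 and Dlgap2 had no window. The windows of 3 genes are printed 5′ to 3′, with every CpG in capitals: Nrgn as the gene with the highest FPKM, Dlg4 as the highest MAGUK, and Sipa1l1 as the gene whose windows differed most in CpG content. The Nrgn window lies at chr9:37552696-37552995 on the minus strand, the Dlg4 windows at chr11:70016953-70017252, chr11:70018355-70018654 and chr11:70023732-70024031 on the plus strand, and the Sipa1l1 windows at chr12:82169766-82170065 and chr12:82311099-82311398 on the plus strand.
Nrgn: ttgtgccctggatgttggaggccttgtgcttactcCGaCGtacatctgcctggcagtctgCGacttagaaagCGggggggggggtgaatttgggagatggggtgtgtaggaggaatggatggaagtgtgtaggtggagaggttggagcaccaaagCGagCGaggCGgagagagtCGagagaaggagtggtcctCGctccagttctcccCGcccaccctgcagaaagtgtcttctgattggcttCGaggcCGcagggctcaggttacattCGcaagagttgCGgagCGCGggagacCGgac
Dlg4 window 1: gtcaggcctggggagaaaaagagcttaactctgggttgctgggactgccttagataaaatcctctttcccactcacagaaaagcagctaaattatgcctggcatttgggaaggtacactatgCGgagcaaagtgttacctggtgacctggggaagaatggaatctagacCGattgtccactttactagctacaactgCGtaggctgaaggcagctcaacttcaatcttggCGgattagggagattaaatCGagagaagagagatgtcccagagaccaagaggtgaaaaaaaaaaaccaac
Dlg4 window 2: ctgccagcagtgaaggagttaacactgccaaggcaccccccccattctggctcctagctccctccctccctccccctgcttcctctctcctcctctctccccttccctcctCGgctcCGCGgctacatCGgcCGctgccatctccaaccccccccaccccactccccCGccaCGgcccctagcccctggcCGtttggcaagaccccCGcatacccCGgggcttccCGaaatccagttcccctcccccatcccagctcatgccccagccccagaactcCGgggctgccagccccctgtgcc
Dlg4 window 3: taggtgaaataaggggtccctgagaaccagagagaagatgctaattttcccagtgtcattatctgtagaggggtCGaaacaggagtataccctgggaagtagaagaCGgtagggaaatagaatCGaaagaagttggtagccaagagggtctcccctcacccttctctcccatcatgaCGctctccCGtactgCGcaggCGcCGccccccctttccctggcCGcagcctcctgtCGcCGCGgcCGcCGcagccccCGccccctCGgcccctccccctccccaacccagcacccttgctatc
Sipa1l1 window 1: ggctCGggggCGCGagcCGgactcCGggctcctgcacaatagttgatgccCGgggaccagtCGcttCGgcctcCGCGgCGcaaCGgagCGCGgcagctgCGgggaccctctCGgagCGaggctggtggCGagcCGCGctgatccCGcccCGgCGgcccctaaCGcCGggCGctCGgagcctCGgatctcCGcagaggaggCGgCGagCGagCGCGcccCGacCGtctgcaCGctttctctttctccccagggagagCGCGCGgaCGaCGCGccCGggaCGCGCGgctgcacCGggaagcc
Sipa1l1 window 2: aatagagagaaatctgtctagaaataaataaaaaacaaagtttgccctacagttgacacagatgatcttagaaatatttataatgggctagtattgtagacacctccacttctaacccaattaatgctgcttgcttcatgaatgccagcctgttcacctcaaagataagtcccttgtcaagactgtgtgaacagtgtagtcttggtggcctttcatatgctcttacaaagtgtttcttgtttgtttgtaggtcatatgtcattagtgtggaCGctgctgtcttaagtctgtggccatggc

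The single Nrgn window held 17 CpG and the 3 Dlg4 windows held 5, 12 and 16. The contrast within Sipa1l1 was wider, with 48 CpG in its first window and 1 in its second, so that the observed CpG over that expected from the base composition was 1.12 and 0.0863. A window was called CpG-rich when this ratio was above 0.6 and its GC content above 50%. Of the 69 windows 38 (55.1%) were CpG-rich, against 33.3% of all 32851 windows and 46.2% of the 20207 windows of protein-coding genes. Among protein-coding genes at 10 FPKM or more the share was higher than among the postsynaptic density genes, at 69.7%, and among those under 1 FPKM it was 14.3%. Counted by gene, 30 of the 40 genes (75%) had at least 1 CpG-rich window, against 80.2% of protein-coding genes at 10 FPKM or more. Several windows of a gene can overlap, so they are not independent.

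CpG content differed between the start sites of single genes. Of the 18 genes with more than 1 window, 13 (72.2%) had windows of both kinds, against 29.9% of all 4163 genes with more than 1 window, 40.9% of the 2678 protein-coding ones and 48.5% of those at 10 FPKM or more. In some of the 13 the higher ratio was near 0.6, at 0.605 in Dlgap1, 0.611 in Iqsec1, 0.612 in Dlg4 and 0.626 in Abi1. The 2 windows of Abi1 overlap. Genes with more windows have more chances to hold both kinds, and the number of windows was not matched. The ratio ran from 0.0485 to 0.917 in Iqsec2, from 0.158 to 0.967 in Homer2, from 0.0631 to 0.847 in Grip1 and from 0.181 to 1.02 over the 5 windows of Anks1b. All 5 windows of Begain were CpG-rich, and none of the 3 windows of Dlg2 was, at 0.0630 to 0.218. The Dlg2 windows all lie inside the gene, and the outer start of its span has no window. The table gives 1 value per gene, so the start site in use was not measured.

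**Figure D1:**
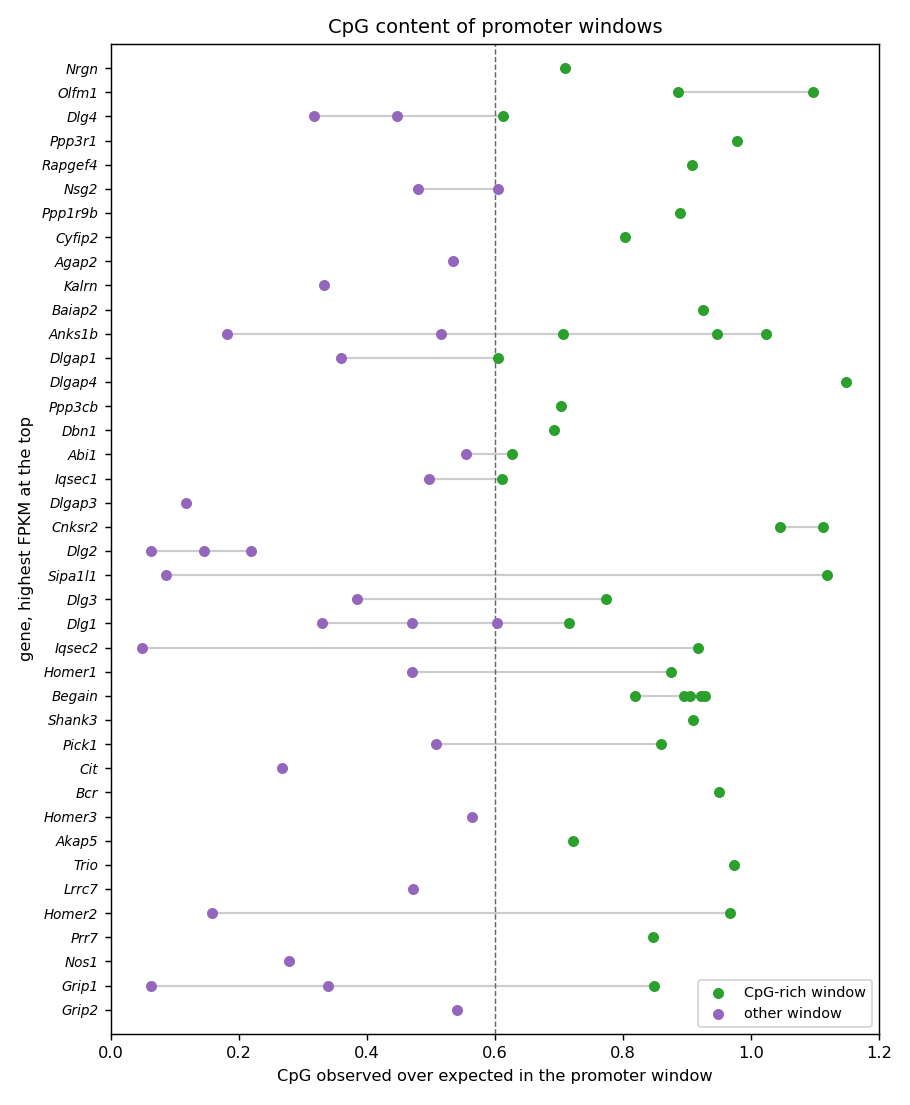
CpG observed over expected (horizontal axis) in each RefSeq promoter window of the 40 genes with windows, ordered by FPKM from top to bottom. Points are windows, lines join the windows of a gene, and the dashed line marks 0.6; 13 genes, such as Sipa1l1 and Iqsec2, have windows of both kinds, and points right of the line that are not CpG-rich have a GC content of 50% or less.

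The 10 genes with no CpG-rich window among those matched were Nsg2, Agap2, Kalrn, Dlgap3, Dlg2, Cit, Homer3, Lrrc7, Nos1 and Grip2. They included genes of high and of low level, from Nsg2 at 236 FPKM and Agap2 at 109 FPKM to Nos1 at 4.31 FPKM and Grip2 at 3.29 FPKM. Their median was 28.3 FPKM, against 45.6 FPKM for the 30 genes with such a window. Some of them have no window at the outer start of their RefSeq span, so a CpG-rich start site there would be missed. Dlg2, on the plus strand, spans from 90476188, and its first window starts at 91090536. On the minus strand, the Kalrn span ends at 34573277 and its window at 34514277. The Grip2 span, also on that strand, ends at 91843954 and its window at 91807643. Agap2 and Dlgap3 likewise have their windows inside the span. Of 5 short motifs searched on both strands, GGGCGG was in 58.0% of the genes' windows, against 35.7% of all windows and 63.8% of those of protein-coding genes at 10 FPKM or more. TATAAA was in 8.70% against 13.6% of all windows, TGACG in 18.8% against 20.8%, CACGTG in 7.25% against 7.15%, and TGCGCA in 7.25% against 7.76%. In windows of protein-coding genes at 10 FPKM or more these shares were 6.47%, 33.0%, 9.99% and 15.1%, in the same order. None of these motifs contains another.

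All 48 genes were above 1 FPKM, and most lay far above the level of a typical gene. Of all 46073 rows 31.5% reached 1 FPKM, and of the 20631 protein-coding rows 58.6% did. At 10 FPKM or more stood 41 of the 48 genes (85.4%), against 14.6% of all rows and 29.1% of protein-coding rows, and at 100 FPKM or more stood 14 of 48 (29.2%), against 1.57% and 2.82%. The median of the 48 genes was 41.1 FPKM, against 0.0414 FPKM over all rows and 2.58 FPKM over protein-coding rows. The values spanned 265-fold, from Nrgn at 874 FPKM, the 16th highest protein-coding row, to Grip2 at 3.29 FPKM, the 9690th. The median gene stood at the 91.8th percentile of protein-coding rows. The list was drawn up as genes of brain synapses, so a high level in cortex describes the list and was not tested. In bulk tissue more cells of a type and more RNA per cell cannot be told apart.

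**Figure D2:**
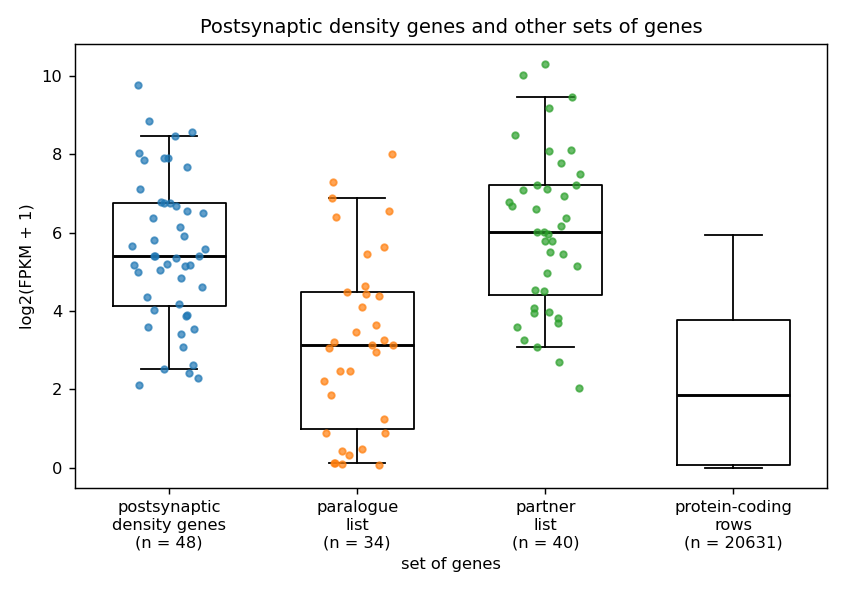
Levels as log2(FPKM + 1) of the 48 postsynaptic density genes, 34 paralogues, 40 partners and all 20631 protein-coding rows. Boxes span the quartiles with the median as a line, whiskers the 5th to 95th percentile of genes, and points are single genes; the medians on the FPKM scale are 41.1, 7.79, 64.0 and 2.58.

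The tissue check put cortical neuron markers well above those of the striatum. The 7 striatal markers had a median of 1.96 FPKM. The 6 excitatory cortical markers had a median of 19.7 FPKM and ranged from Emx1 at 7.08 FPKM to Slc17a7 at 353 FPKM, and the 6 inhibitory ones had a median of 30.7 FPKM and ranged from Slc32a1 at 18.6 FPKM to Sst at 297 FPKM. Markers of other cells were present too, with medians of 27.8 FPKM for astrocytes, 136 FPKM for oligodendrocytes, 9.95 FPKM for microglia and 2.97 FPKM for endothelium. Several of the 48 genes, such as Dlg1, Abi1 and Baiap2, are also used by cells other than neurons, and the part of each cell type in a value was not tested.

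Among the MAGUKs, Dlg4 stood far above the other genes. Dlg4, which encodes PSD-95, the main MAGUK of mature excitatory synapses, was at 380 FPKM (ENSMUSG00000020886, chromosome 11, 70017203 to 70045535). Dlg2, encoding PSD-93, was at 41.2 FPKM, Dlg3, encoding SAP102, at 35.6 FPKM and Dlg1, encoding SAP97, at 35.3 FPKM. These last genes lay within 1.17-fold of each other, while Dlg4 was 9.22-fold above Dlg2, 10.7-fold above Dlg3 and 10.8-fold above Dlg1. Dlg4 thus held 77.2% of the summed FPKM of the family. Dlg5, a MAGUK outside the list that is known from epithelial cells, was at 8.64 FPKM, 44.0-fold below Dlg4.

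The SAPAP genes had 2 members at nearly the same level on top. Dlgap1 was at 92.8 FPKM and Dlgap4 at 90.2 FPKM, a ratio of 1.03. Dlgap3, whose loss in mice is known for repetitive grooming, was at 47.2 FPKM, and Dlgap2 was lowest at 13.8 FPKM, 6.73-fold below Dlgap1. The remaining family gene, Dlgap5, which acts in the mitotic spindle, was at 0.251 FPKM.

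The Shank genes had the narrowest range of the 4 scaffold families. Shank1 was at 34.8 FPKM, Shank3 at 23.3 FPKM and Shank2 at 17.0 FPKM, a 2.04-fold range from top to bottom. The Homer genes spanned 5.92-fold. Homer1 was at 30.8 FPKM, with short activity-induced and long constitutive forms counted together, Homer3 at 11.1 FPKM and Homer2 at 5.20 FPKM. Homer3 overlaps the gene Ddx49 (20.4 FPKM) on the opposite strand over 1496 bases, and no source used here says whether strand was used in counting, so its value is uncertain.

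Along the chain from membrane to cytoplasm, the family sums were 492 FPKM for the 4 MAGUK genes, 244 FPKM for the 4 SAPAP genes, 75.1 FPKM for the 3 Shank genes and 47.1 FPKM for the 3 Homer genes. The MAGUK sum was 2.02 times the SAPAP sum, the SAPAP sum 3.25 times the Shank sum and the Shank sum 1.59 times the Homer sum. By family median the order was SAPAP at 68.7, MAGUK at 38.4, Shank at 23.3 and Homer at 11.1 FPKM, so the place of the MAGUKs at the top rests on Dlg4: without it their sum was 112 FPKM, 0.459 times the SAPAP sum. These are RNA levels, and protein amounts were not measured.

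**Figure D3:**
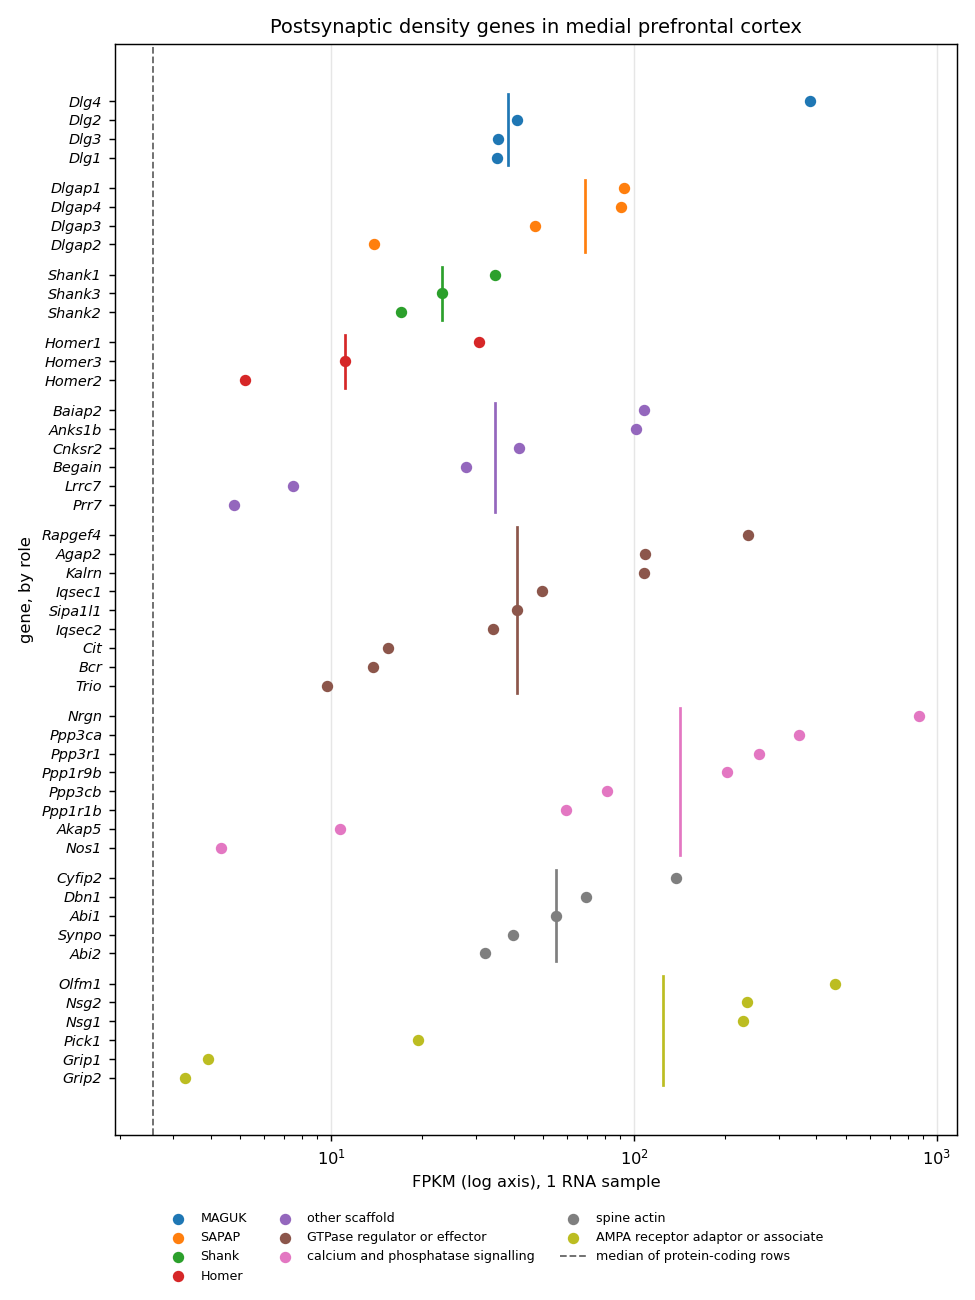
FPKM (horizontal, log axis) of the 48 genes in 1 RNA sample, grouped by role. Points are genes, the coloured vertical line is the median of each role group, and the dashed line is the median of protein-coding rows at 2.58 FPKM; all 48 points lie right of it, and Dlg4 at 380 FPKM and Nrgn at 874 FPKM stand apart from the rest of their groups.

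The remaining scaffolds ranged from 4.77 to 108 FPKM. Baiap2, encoding IRSp53, which bends membranes and links Rac to actin, was at 108 FPKM. Anks1b, whose product AIDA-1 binds PSD-95, was at 101 FPKM. Cnksr2, a scaffold of Ras signalling that binds PSD-95, was at 41.5 FPKM, and Begain, which binds the guanylate kinase domain of PSD-95, at 27.9 FPKM. Lrrc7, encoding densin, a partner of CaM kinase, was much lower at 7.47 FPKM. Prr7, a small transmembrane adaptor of PSD-95, was at 4.77 FPKM, 21.2-fold below Anks1b.

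Prr7 lies directly beside another gene of the list. It ends 265 bases from Dbn1, with the genes on opposite strands of chromosome 13 (Prr7 at 55464267 to 55473162, Dbn1 at 55473428 to 55488126). Dbn1 was 14.6-fold higher, at 69.5 FPKM.

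Of the regulators and effectors of small GTPases, Rapgef4 was highest. It encodes Epac2, which activates Rap when cyclic AMP binds, and stood at 237 FPKM. Agap2, an Arf GTPase-activating protein also known as PIKE, was at 109 FPKM. Kalrn, an exchange factor for Rac that enlarges spines, was at 108 FPKM, and its close paralogue Trio at 9.69 FPKM, 11.1-fold lower. Trio shares 25073 bases on the same strand with the gene Gm29975, which has no value here, so the Trio level is uncertain. The Arf6 exchange factors Iqsec1 and Iqsec2 were at 49.7 and 34.3 FPKM. Sipa1l1, a Rap GTPase-activating protein that acts on spine shape, was at 41.0 FPKM. Cit, a kinase known in dividing cells for cytokinesis, was at 15.4 FPKM, and Bcr, a Rac GTPase-activating protein, at 13.7 FPKM. The 9 genes had a median of 41.0 FPKM and spanned 24.5-fold.

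The calcium and phosphatase genes had the highest median of the role groups, 142 FPKM over 8 genes. Nrgn (ENSMUSG00000053310, chromosome 9, 37544493 to 37552745), encoding neurogranin, which binds calmodulin at low calcium, was at 874 FPKM. The 3 calmodulin genes, which encode the same protein, summed to 2875 FPKM, 3.29 times Nrgn. Calmodulin genes have pseudogenes, so that sum is uncertain. Among paralogues with the same calmodulin-binding IQ motif, Nrgn was 7.42-fold above Gap43, a presynaptic growth protein, and 3.39-fold above Pcp4.

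Calcineurin RNA came mainly from 1 catalytic and 1 regulatory gene. Of the catalytic genes, Ppp3ca was at 350 FPKM and Ppp3cb at 81.3 FPKM, a ratio of 4.31. Ppp3cc was at 7.78 FPKM, and Ppp3ca held 79.7% of their sum of 439 FPKM. The regulatory gene Ppp3r1 was at 259 FPKM, and its testis paralogue Ppp3r2 at 0.0419 FPKM. The catalytic sum was 1.70 times the regulatory sum. Akap5, which anchors calcineurin and kinases at the synapse, was 32.7-fold below Ppp3ca at 10.7 FPKM.

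The regulators of protein phosphatase 1 differed in level. Ppp1r9b, encoding spinophilin, which places the phosphatase in spines, was at 203 FPKM, 8.44-fold above its paralogue Ppp1r9a at 24.1 FPKM. Ppp1r1b, encoding the inhibitor DARPP-32, was at 59.6 FPKM. DARPP-32 is best known from striatal projection neurons, and the 7 markers of those neurons summed to 24.8 FPKM, with Drd1 at 2.77, Drd2 at 1.63, Adora2a at 1.96, Six3 at 0.272 and Isl1 at 0.0772 FPKM. Whether striatal tissue takes part in the Ppp1r1b value was not tested. Nos1, the neuronal nitric oxide synthase that PSD-95 tethers, was at 4.31 FPKM, and the gene of its adaptor, Nos1ap, was 14.8-fold higher at 64.0 FPKM.

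Genes of spine actin spanned 4.27-fold, from 32.1 to 137 FPKM. Cyfip2, a subunit of the WAVE complex that starts branched actin, was at 137 FPKM, 6.91-fold above Cyfip1 at 19.9 FPKM. Dbn1, encoding the actin-binding drebrin, was at 69.5 FPKM. The WAVE subunit genes Abi1 and Abi2 were at 55.2 and 32.1 FPKM, and Abi3 at 3.67 FPKM. Synpo, encoding synaptopodin of the spine apparatus, was at 39.9 FPKM. Abi2 overlaps Raph1 (8.17 FPKM) over 10766 bases, so its value is uncertain.

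The 5 subunits of the WAVE complex had RNA levels within 1.93-fold of each other. The Cyfip genes summed to 157 FPKM, Nckap1 was at 146 FPKM, Brk1 at 109 FPKM, the Abi genes at 91.0 FPKM in sum and Wasf1 at 81.5 FPKM. Other Wasf genes were not in the fixed lists and are not included in this range.

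The AMPA receptor adaptors and associated proteins split into a high and a low set, with nothing between 19.4 and 230 FPKM. Olfm1, a secreted glycoprotein that binds AMPA receptors, was at 463 FPKM, the second highest of the 48 genes. The endosomal sorting genes Nsg2 and Nsg1 stood at 236 and 230 FPKM, a ratio of 1.03. Pick1, a PDZ and BAR domain protein that takes part in removing AMPA receptors from the membrane, was at 19.4 FPKM. The multi-PDZ adaptors Grip1 and Grip2, at 3.93 and 3.29 FPKM, were the lowest of all 48 genes, and Nsg2 was 71.8-fold above Grip2. Grip2 overlaps Ccdc174 (8.61 FPKM) over 801 bases on the opposite strand and Grip1 overlaps Helb (0.931 FPKM), so their low values are uncertain.

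Of 28 pairs of a listed gene with a paralogue outside the list, the listed gene was 2-fold or more above it in 23, on the log2(FPKM + 1) scale, the paralogue was 2-fold or more above in 1, and 4 pairs lay closer. The pairs and paralogues were chosen with earlier results of these data known. Their counts describe the chosen genes and were not set against paralogues in general. Adding 1 before the logarithm makes differences of low genes look smaller than their ratios. The largest difference was Ppp3r1 over Ppp3r2, by 7.96 on the log2 scale. It was followed by Baiap2 over Baiap2l1 by 6.29, Dlgap1 over Dlgap5 by 6.23 and Olfm1 over Olfm3 by 5.81. Cnksr2 was 49.5-fold above Cnksr3, Synpo 47.2-fold above Synpo2, Anks1b 22.4-fold above Anks1a and Rapgef4 14.7-fold above Rapgef3.

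The exception was Bcr, at 13.7 FPKM against 92.2 FPKM for its paralogue Abr, also a Rac regulator, a log2 difference of -2.66. Agap2 at 109 FPKM stood below Agap3 at 155 FPKM but within 2-fold, and 13.1-fold above Agap1. Lrrc7 at 7.47 FPKM was close to Erbin at 9.97 FPKM, a paralogue of the same leucine-rich repeat and PDZ family. The other close pairs were Iqsec2 with Iqsec3 (20.5 FPKM) and Ppp1r1b with Ppp1r1a (42.5 FPKM). Nos1 was 3.15-fold above the endothelial Nos3 and 49.3-fold above the inducible Nos2.

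**Figure D4:**
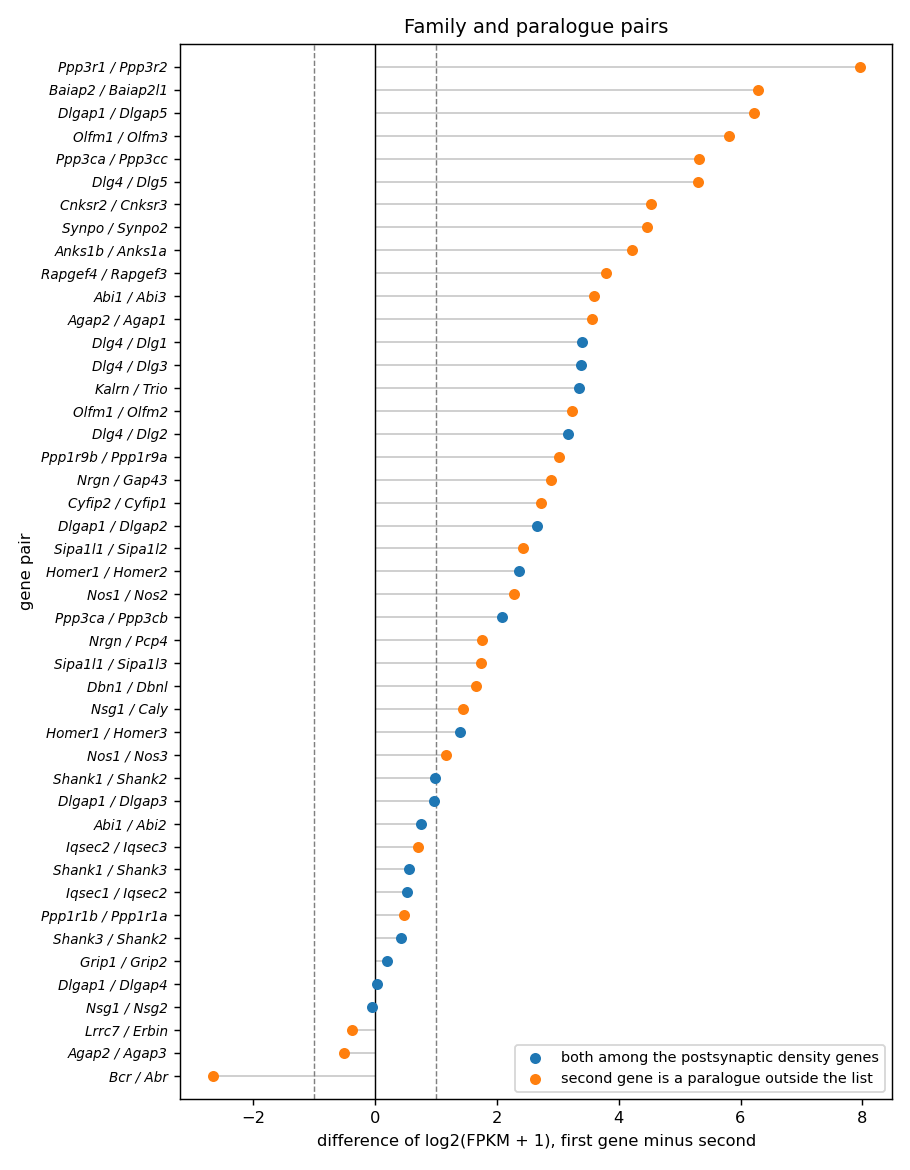
Difference of log2(FPKM + 1), first gene minus second, for 45 fixed pairs. Blue points are pairs within the 48 genes, orange points pairs with a paralogue outside the list, and dashed lines mark 2-fold; 31 pairs lie right of the right line, and Bcr with Abr, at -2.66, is the pair left of the left line.

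Within the list, 8 of 17 pairs differed by 2-fold or more on the log2(FPKM + 1) scale and 9 did not. Shank1 and Shank2, counted as close, are at the limit: their ratio of FPKM was 2.04, and their difference was 0.99 on that scale and 1.03 with 0.1 added in place of 1. The close pairs were those of the Shank genes, Dlgap1 with Dlgap3 and with Dlgap4, Iqsec1 with Iqsec2, Abi1 with Abi2, Grip1 with Grip2 and Nsg1 with Nsg2. The pairs that differed involved Dlg4, Dlgap2, Homer1, Ppp3ca and Kalrn with Trio.

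The paralogue list as a whole had 25 of 34 genes at 1 FPKM or more and a median of 7.79 FPKM, against 48 of 48 and 41.1 FPKM for the postsynaptic density genes. The list of 40 partners (receptors, kinases, GTPases and complex subunits that bind or act with the 48 proteins) had all 40 at 1 FPKM or more and a median of 64.0 FPKM. Dlg4 at 380 FPKM was 1.75 times Grin1, the gene of the obligatory NMDA receptor subunit. The other NMDA receptor subunit genes of the partner list, Grin2a and Grin2b, were far lower, at 8.62 and 14.7 FPKM. Homer1 was 1.38 times Grm5, the metabotropic receptor it binds, at 22.3 FPKM. Nrgn was 1.25 times Camk2a, the kinase that competes with it for calmodulin. Ppp1r9b was 2.11 times Ppp1ca, a catalytic subunit it binds, at 96.5 FPKM. The other catalytic genes of that phosphatase, Ppp1cb and Ppp1cc, were at 148 and 63.9 FPKM.

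The genes were long on the chromosome. Their RefSeq spans had a median of 81.8 kb, against 18.04 kb for protein-coding genes and 23.3 kb for protein-coding genes at 10 FPKM or more. Spans above 100 kb were found in 22 of 48 (45.8%), against 11.6% of protein-coding genes and 13.9% of those at 10 FPKM or more. Dlg2 was longest, at 1973 kb, and Nrgn shortest, at 8.25 kb. Long genes were found at high and low levels: Anks1b spans 1100 kb and was at 101 FPKM, and Grip1 spans 634 kb and was at 3.93 FPKM. Across the 48 genes span and FPKM had a Spearman correlation of -0.17, and across 5994 protein-coding genes at 10 FPKM or more of -0.16, as a description of genes in 1 sample.

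Chromosome 11 held 7 of the 48 genes (14.6%), against 7.59% of protein-coding rows. These were Dlg4, Ppp3r1, Nsg2, Ppp1r9b, Cyfip2, Baiap2 and Ppp1r1b, of which the lowest, Ppp1r1b, was at 59.6 FPKM. The X chromosome held Cnksr2, Dlg3 and Iqsec2, at 41.5, 35.6 and 34.3 FPKM. In all, 9 of the 48 genes (18.8%) overlap another protein-coding gene in RefSeq, against 16.9% of protein-coding rows and 21.1% of those at 10 FPKM or more. Among them are Nsg1, which shares 578 bases with Stx18 (14.1 FPKM), and Cyfip2, which shares 4315 bases with Fndc9 (0.651 FPKM).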

How the data were processed

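RNA of 1 sample was measured by RNA-seq. The submitters' processing notes name CASAVA 1.8.2, TopHat, Cufflinks and the build mm10. TopHat's and Cufflinks' versions, the annotation, the treatment of strand and how replicates were combined are not given in these sources. The authors deposited FPKM per Ensembl gene, in 2 columns with equal values, which were counted as 1 sample. FPKM depends on the assumed transcript length, so errors in it enter every comparison between genes.

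The genes, lists and pairs were chosen with earlier results of these data known. Identifiers were matched to symbols for 45139 rows, and gene classes and coordinates came from RefSeq for GRCm38.p6, by symbol. Genes were counted at 1, 10 and 100 FPKM, pairs were compared as ratios and on the log2(FPKM + 1) scale (pseudocount 1), and CpG content and motifs were counted in promoter windows. All listed genes are named, with paralogues and partners from fixed lists. Some genes of these lists and of the marker lists are not reported here by name, while counts, sums and medians include them. Alternatives covered the floor, pseudocount, scaling and summary. Functions were tested on simulated data. Python 3.11.15, numpy 2.4.6, pandas 2.3.3, scipy 1.17.1 and matplotlib 3.10.9 were used.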

Additional observations from a re-analysis of the deposited data

How the results depend on the processing

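The count of 48 genes at 1 FPKM or more was 48 with a floor of 0.1 FPKM and 44 with 5 FPKM, and the counts of the paralogue and partner lists stayed within 1.5 times under each floor and scaling tried. As geometric means the 48 genes, the paralogues and the partners stood at 45.1, 7.99 and 64.1 FPKM, and the highest role group was 7.34 times the lowest instead of 12.8 times by median. Rescaled to a sum of 1000000 over all rows, the 3 medians were 52.1, 9.88 and 81.2, and without mitochondrial genes, which held 50.04% of the summed FPKM, they were 104, 19.8 and 162. The median percentile of the 48 genes was 95.7 among all rows and 91.8 among protein-coding rows. Pairs apart numbered 32, and 26 to 33 under the alternatives. The 135 recomputed pair values kept their direction, as they must, because neither a pseudocount nor a common scaling can reverse a pair. The median promoter CpG ratio was 0.621 before the start site only, against 0.626. CpG-rich windows then numbered 33 of 69 (47.8%) instead of 38, against 42.4% of protein-coding windows cut the same way. For protein-coding genes at 10 FPKM or more that share was higher, at 64.0%. With 1 distinct library, leaving out replicates was not run. No paired analysis was possible because the table holds 1 distinct value per gene. Unknown depth and replicate spread limit every comparison.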
